A study of Mus musculus with 9 samples.

Results

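The 42 genes of lysosomes and autophagy described here were taken by symbol from a table of raw counts: 9 cathepsins, 8 glycosidases, 5 genes of lipid and peptide hydrolysis, 7 lysosomal membrane proteins, the TFEB and TFE3 transcription factors, 6 genes of the ATG8 family with the receptor Sqstm1, and 5 genes of autophagy initiation and conjugation. All 42 symbols were found among the 28111 genes of the table, and all 42 passed the filter on low counts that left 14817 genes to test. The choice was by name, with no threshold on a value. The libraries came from induced regulatory T cells (iTreg), CD4 T cells driven in culture to express Foxp3, of C57BL/6J mice. The 4 Glut1Tg libraries carried a Glut1 transgene, Glut1 being the glucose transporter encoded by Slc2a1, and the 5 WT libraries were wild-type controls. The labels also give a mouse group. Mouse group 2 held Glut1Tg replicate 1 and WT replicates 2, 4 and 5, and mouse group 1 held Glut1Tg replicates 2, 3 and 4 and WT replicates 1 and 3; single values follow in that order. What sets the mouse groups apart, the age of the mice, the promoter of the transgene and whether libraries came from separate animals or cultures are not stated in the labels. A p-value here therefore reflects variation among these libraries alone, possibly technical variation.

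Lysosomes are acidic organelles in which cathepsins, glycosidases, lipases and other hydrolases break down proteins, sugars and lipids that arrive by endocytosis or by autophagy. In autophagy, the ULK1 kinase complex and the Beclin 1 lipid kinase complex start a membrane sac, and ATG5, ATG7 and their partners attach ATG8-family proteins (LC3 and GABARAP) to it. The receptor p62, encoded by Sqstm1, carries cargo into the sac, which then fuses with a lysosome. TFEB and TFE3 are transcription factors that switch on many of these genes when mTORC1, the nutrient-sensing kinase on the lysosomal surface, is inactive. In T cells, autophagy supports survival and regulatory T cell stability, and lysosomal proteases process antigens and granule enzymes.

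Totals ran from 20881035 to 31196428 counts per library, and levels below are CPM, which are counts scaled to an equal library total with edgeR's TMM factors. Slc2a1 checked the genotype labels, at 373 ± 121 CPM in Glut1Tg and 42.1 ± 12.6 CPM in WT (SD, n = 4 and n = 5; edgeR adjusted p = 0.000903). The 11 T cell identity genes, Foxp3 among them, were all detected and summed to 4978 to 8015 CPM in Glut1Tg and 5972 to 7928 CPM in WT. By mouse group these sums were 6398 to 8015 CPM in mouse group 2 and 4978 to 6221 CPM in mouse group 1, with Il2ra higher and Ctla4 lower in mouse group 2 (log2 fold changes 2.32 and -0.71). In all, 3 libraries stood apart. Glut1Tg replicate 1 and WT replicate 2 lay together at one end of the first principal component, with summed proliferation markers of 5943 and 5669.9 CPM against 1012 to 2438 CPM in the others. Glut1Tg replicate 3 lay at the end of the second component, with summed mast cell and basophil markers of 5275 CPM.

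Lysosomal protease and cofactor genes led the set per kb of exon. To compare genes with each other, levels were expressed as CPM per kb of exon, as mean ± SD over the 9 libraries. Exon length was the union of all annotated exons of a gene, and the ranking depends on it. By mean CPM without length, Psap led at 621, then Sqstm1 at 426, Ctsd at 353 and Ctss at 330. The values that follow are per kb. Ctss, a cathepsin known from antigen-presenting cells, was first at 243 ± 52.4 CPM per kb, followed by Psap, the precursor of the saposins that help degrade sphingolipids, at 226 ± 38.7, and Ctsd, the main aspartic protease of lysosomes, at 150.3 ± 45.6. Gabarap of the ATG8 family stood at 136 ± 23.4, the receptor gene Sqstm1 at 127 ± 58.8 and Lamp1, the gene of a major lysosomal membrane glycoprotein, at 91.7 ± 22.9 CPM per kb. Neighbours in this order differed by less than the larger of their SDs, except for Psap and Ctsd, whose means differed by more than the SD of either. At the low end, Wipi1, whose product binds phosphoinositides on the growing sac, stood at 2.26 ± 0.66, the cysteine protease gene Ctsf at 1.25 ± 0.644 and the aminopeptidase gene Ctsh at 0.383 ± 0.883 CPM per kb. Over the 9 libraries 22 of the 42 genes varied by less than 2-fold from the lowest to the highest library, with Man2b1 the steadiest at 1.2-fold. Variation of more than 5-fold was seen in 4 genes: Cd63 (262-fold), Ctsh (60.7-fold), Ctsl (9.05-fold) and Cd68 (6.99-fold).

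**Figure D1:**
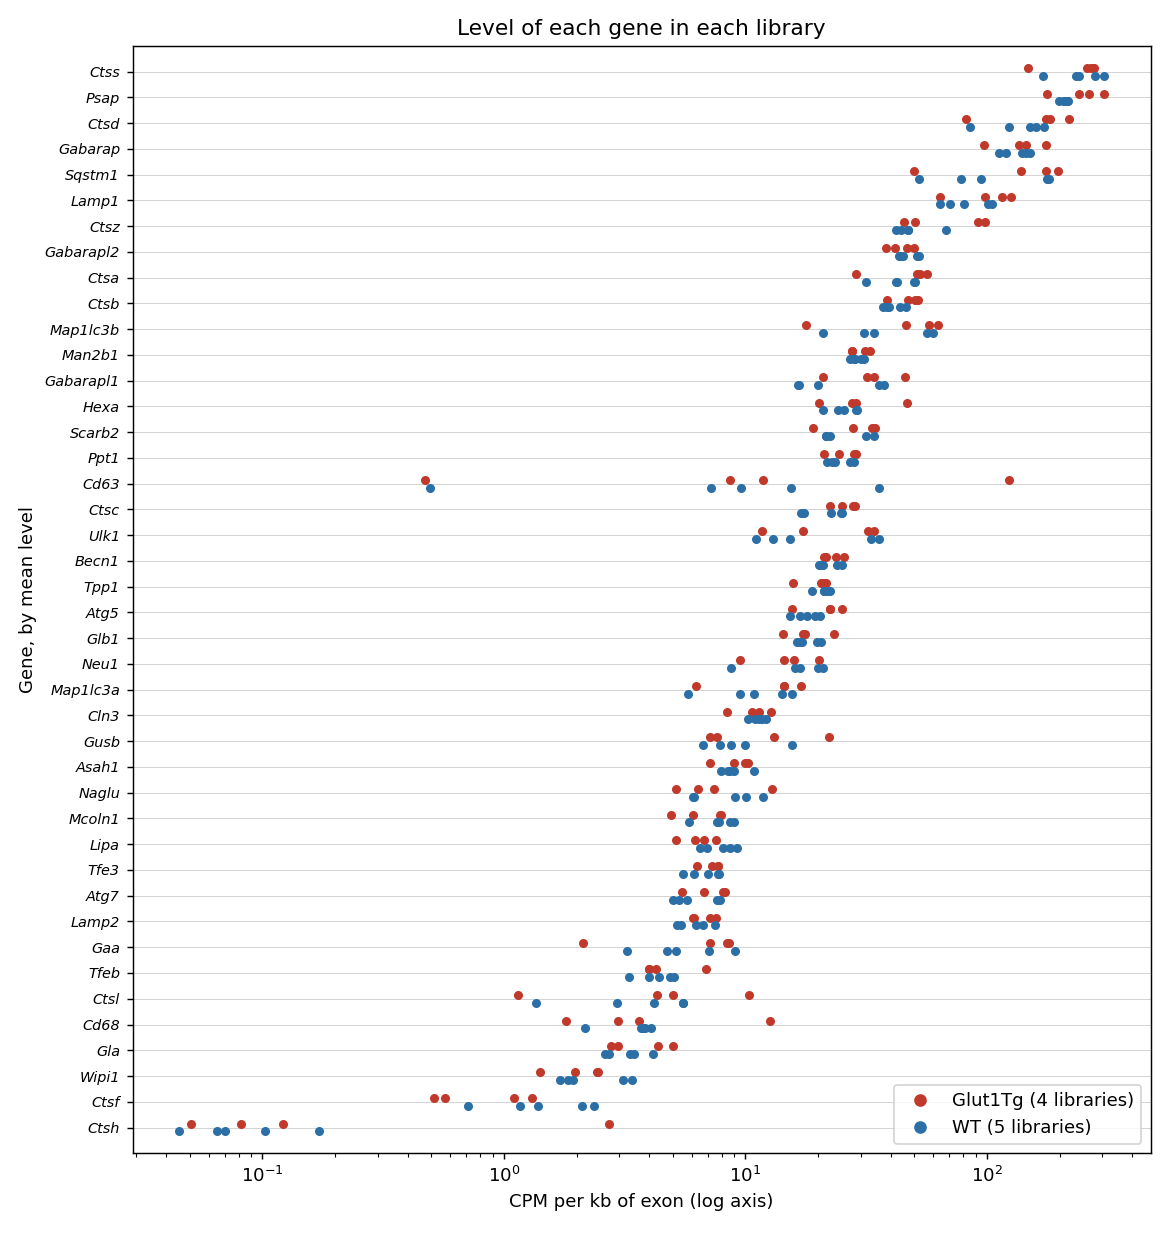
Level of each of the 42 genes in every library, as CPM per kb of exon on a log axis, with genes ordered by their mean over 9 libraries (red, 4 Glut1Tg libraries; blue, 5 WT libraries). Ctss leads at 243 CPM per kb and Ctsh is last at 0.383, and the points of Cd63 spread 262-fold from the lowest to the highest library.

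TFEB and TFE3 bind the CLEAR element, whose core TCACGTG is an extended E-box, and promoter stretches are shown for the genes that hold it and passed a test below, with 3 that hold it and did not pass. Promoter windows of 300 bases, from 250 before to 50 after a start, were available from RefSeq (GRCm38.p6) for 37 of the 42 genes. The core, searched on both strands, was found in 10 of these 37 genes (27%), against 1160 of 27025 genes with a window (4.29%). The set was chosen as lysosome and autophagy genes, many of them known targets of these factors. The higher share is therefore not an independent result. The core contains the shorter E-box CACGTG, which was found in 13 of the 37 genes (35.1%) and in 8.09% of all. The 10 genes with the core were Ctsa, Ctsd, Gaa, Gla, Glb1, Naglu, Lamp1, Cln3, Mcoln1 and Atg7. The Lamp1 window held 4 separate matches, the most of any, in the stretch from base -82 to base 10 counted from the start. Matches to the core, on either strand, are in capitals, and overlapping matches run together. For Ctsd the match nearer to the start is shown:
Lamp1 (chr8:13159079-13159171, plus strand): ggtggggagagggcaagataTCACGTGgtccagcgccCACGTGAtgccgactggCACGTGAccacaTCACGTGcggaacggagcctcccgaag
Gaa (chr11:119267802-119267848, plus strand): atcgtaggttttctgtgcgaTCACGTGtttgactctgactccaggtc
Atg7 (chr6:114670943-114670989, plus strand): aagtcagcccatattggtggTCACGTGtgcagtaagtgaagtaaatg
Naglu (chr11:101070000-101070046, plus strand): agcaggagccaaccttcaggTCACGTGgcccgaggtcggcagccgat
Mcoln1 (chr8:3500427-3500500, plus strand): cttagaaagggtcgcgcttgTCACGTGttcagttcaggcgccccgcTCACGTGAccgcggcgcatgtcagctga
Ctsa (chr2:164833740-164833804, plus strand): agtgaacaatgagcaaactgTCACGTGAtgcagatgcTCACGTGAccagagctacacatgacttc
Ctsd (chr7:142387899-142387946, minus strand): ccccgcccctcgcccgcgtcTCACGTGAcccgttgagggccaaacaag
Of the 10 genes with the core, Lamp1, Gaa and Atg7 were lower and Naglu was higher in mouse group 2, as given below. Among all 42 genes 23.8% were lower and 7.14% higher, and among all genes tested 11.0% and 13.1%. Whether the core went with these calls was not tested. Ctsa, Ctsd, Gla, Glb1, Cln3 and Mcoln1 did not pass. The windows of Atg7, Ctsa and Cln3 that hold the core lie inside the spans that GENCODE M21 gives for these genes, downstream of the annotated gene starts. Ctsa and Cln3 also have a window at the annotated gene start, and it lacks the core. The matches shown for Ctsd and Naglu, and the later match of Mcoln1, lie downstream of the annotated gene starts as well. The FOXO motif GTAAACA was found in 0 of the 37 genes and in 4.05% of all genes, both strands searched. A match is a description of the letters and does not show that a factor binds there.

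Whether the Glut1 transgene went with a change in lysosome and autophagy transcripts was tested with mouse group in the model. None of the 42 genes passed (0 higher and 0 lower in Glut1Tg by edgeR's quasi-likelihood test at an adjusted p under 0.05), where 1 of the 14817 genes tested, Slc2a1, did (0.00675%). The smallest adjusted p among the 42 was 0.681, and DESeq2 and limma-voom called 0 of them as well. Positive and negative log2 fold changes were 21 and 21, with a median of -0.0046 against 0.022 over all genes tested. At an unadjusted p under 0.05 there were 4 of the 42 (9.52%, against 6.00% of all genes): Ctsz and Gusb with higher values and Ctsf and Wipi1 with lower values in Glut1Tg. In none of the 42 did the 4 Glut1Tg and 5 WT libraries separate without overlap, against 1.59% of all genes. The log2 fold changes had a median SE of 0.16; the 95% interval of the fold ran from 0.864 to 1.38 for Psap and from 0.617 to 1.15 for Ctss.

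**Figure D2:**
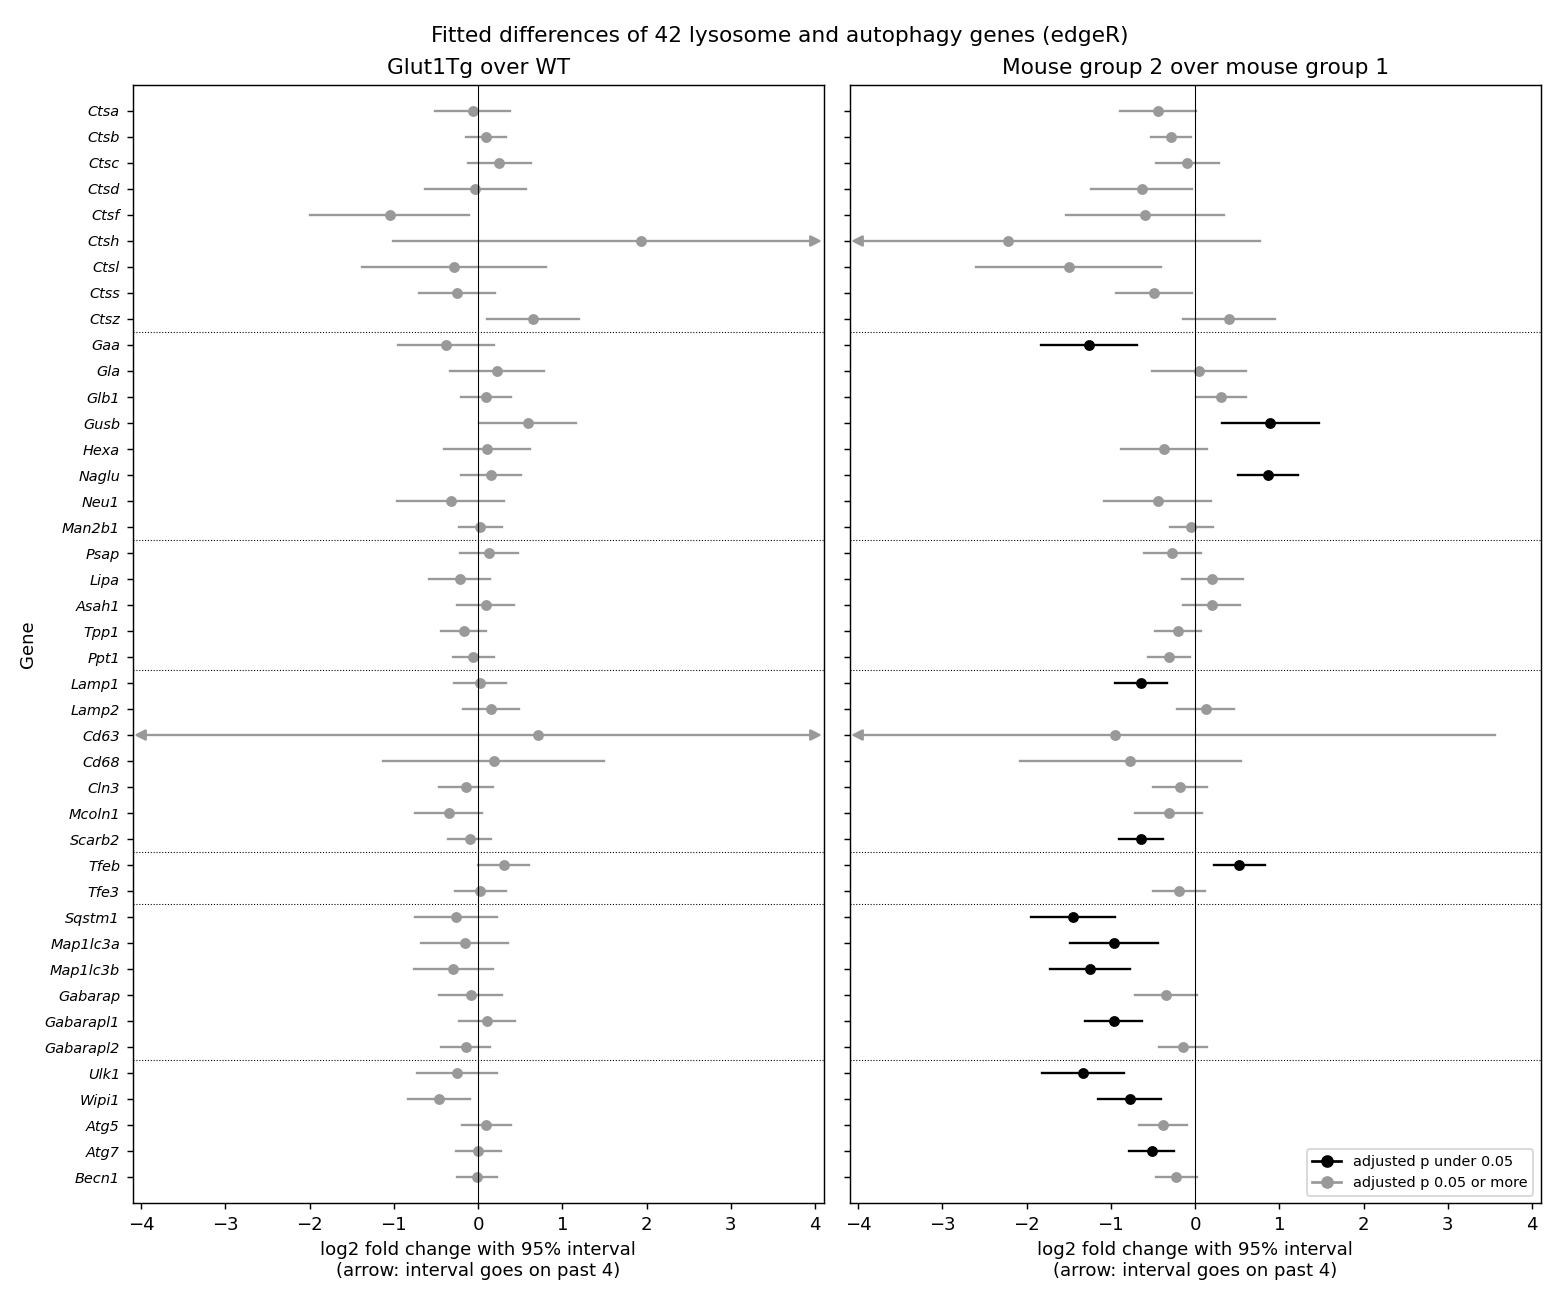
Fitted log2 fold change of each of the 42 genes with its 95% interval (line), for Glut1Tg over WT on the left and mouse group 2 over mouse group 1 on the right, from 1 edgeR model with both terms over 9 libraries. No gene is black (adjusted p under 0.05) on the left, and 13 are black on the right, 10 below 0 and 3 above it; dotted lines part the roles.

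The genes with the smallest p for genotype are given by their values. Ctsz, which encodes a carboxypeptidase of the cathepsin family, had 142, 72.9, 133 and 65.7 CPM in Glut1Tg (replicates 1 to 4), against 60.9, 97.4, 67.9, 68 and 63.9 CPM in WT (replicates 1 to 5). The highest Glut1Tg libraries were replicates 1 and 3, and its highest WT library was replicate 2, so the 3 libraries that stood apart were also the highest for this gene. Neither comparison passed (log2 fold change 0.65, SE 0.24, adjusted p = 0.681 for genotype, log2 fold change 0.40, SE 0.24, adjusted p = 0.247 for mouse group). Separately by mouse group the Ctsz log2 fold change was 0.48 (SE 0.33) within mouse group 1 and 0.87 (SE 0.30) within mouse group 2. Gusb, the gene of beta-glucuronidase, had 101, 34.6, 59.5 and 32.4 CPM in Glut1Tg (replicates 1 to 4), against 30.5, 71.3, 35.8, 45.3 and 39.7 CPM in WT (replicates 1 to 5). Its highest libraries were Glut1Tg replicate 1 and WT replicate 2 (log2 fold change 0.59, SE 0.26, adjusted p = 0.681). Taken by mouse group, Gusb gave 0.34 (SE 0.30) within mouse group 1 and 0.93 (SE 0.36) within mouse group 2. Wipi1 had 6.24, 10.8, 8.71 and 10.7 CPM in Glut1Tg (replicates 1 to 4), against 13.8, 8.56, 15, 8.15 and 7.54 CPM in WT (replicates 1 to 5), overlapping between genotypes, with WT replicates 1 and 3 above all others (log2 fold change -0.46, SE 0.16, adjusted p = 0.681). For Wipi1 the within-group values were -0.52 (SE 0.21) within mouse group 1 and -0.40 (SE 0.35) within mouse group 2. Ctsf had 2.87, 6.57, 5.55 and 2.58 CPM in Glut1Tg (replicates 1 to 4), against 6.97, 3.57, 11.9, 10.6 and 5.89 CPM in WT (replicates 1 to 5). All are low values with overlapping groups (log2 fold change -1.05, SE 0.42, adjusted p = 0.681). Taken by mouse group, Ctsf gave -0.96 (SE 0.46) within mouse group 1 and -1.25 (SE 0.72) within mouse group 2. Mouse group 2 held a single Glut1Tg library, assumed there to vary like the WT libraries. With no mouse group term 31 of the 42 log2 fold changes were positive and 11 negative, and 0 passed. Their median was 0.14, against 0.050 over all genes in that fit.

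Several autophagy genes were lower in mouse group 2 than in mouse group 1. Of the 42 genes, 10 were lower in mouse group 2 and 3 higher (edgeR adjusted p under 0.05, genotype in the model), or 31% against 24.1% of the 14817 genes tested. Lower calls made up 23.8% of the 42 and 11.0% of all genes, and higher calls 7.14% and 13.1%. The median log2 fold change was -0.36, with 33 of 42 below 0. Over all genes tested it was -0.014, with 7525 of 14817 below 0. The lower genes were Sqstm1, Map1lc3a, Map1lc3b, Gabarapl1, Ulk1, Wipi1, Atg7, Lamp1, Scarb2 and Gaa, and the higher ones were Naglu, Gusb and Tfeb. In 17 of the 42 (40.5%) every mouse group 2 library lay below every mouse group 1 library, as in 11.4% of all genes. In 2, Naglu and Tfeb, every one lay above, as in 10.5% of all genes. That made 19 without overlap in either direction (45.2%, against 21.8% of all genes).

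How far single libraries carried these calls was examined next. Without Glut1Tg replicate 1, the only Glut1Tg library of mouse group 2, 3 lower calls (Sqstm1, Gabarapl1 and Ulk1) and 0 higher calls were left, while over all genes tested 2.86% were then called lower and 1.44% higher. Without both this library and WT replicate 2, 2 were lower (Sqstm1 and Gabarapl1) and 0 higher, against 2.36% and 1.38% of all genes. In that fit WT replicates 4 and 5 alone stood for mouse group 2. Leaving out Glut1Tg replicate 3 of mouse group 1 as well kept the same mouse group 2 libraries. It gave 11 lower and 1 higher, 10 of them among the original 13, against 12.4% and 9.47% of all genes. Within WT alone, with 3 libraries of mouse group 2 and 2 of mouse group 1, Sqstm1, Gabarapl1 and Ulk1 were lower and 0 were higher, against 3.96% and 2.1% of all genes. Sqstm1, Gabarapl1 and Ulk1 passed whichever single library was left out. Gaa, Lamp1, Scarb2, Map1lc3b and Naglu passed except without Glut1Tg replicate 1. Map1lc3a was lost without this library or WT replicate 1, Wipi1 without it or WT replicate 3, and Atg7 without it or WT replicate 1 or 3. Gusb and Tfeb were lost without Glut1Tg replicate 1, 2 or 4 or WT replicate 2 or 3, and Gusb also without WT replicate 1. Proliferation markers moved with mouse group, 10 of 12 being higher in mouse group 2, with sums of 1478 to 5943 CPM in mouse group 2 and 1012 to 1789 CPM in mouse group 1. Their part in the calls was not tested.

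**Figure D3:**
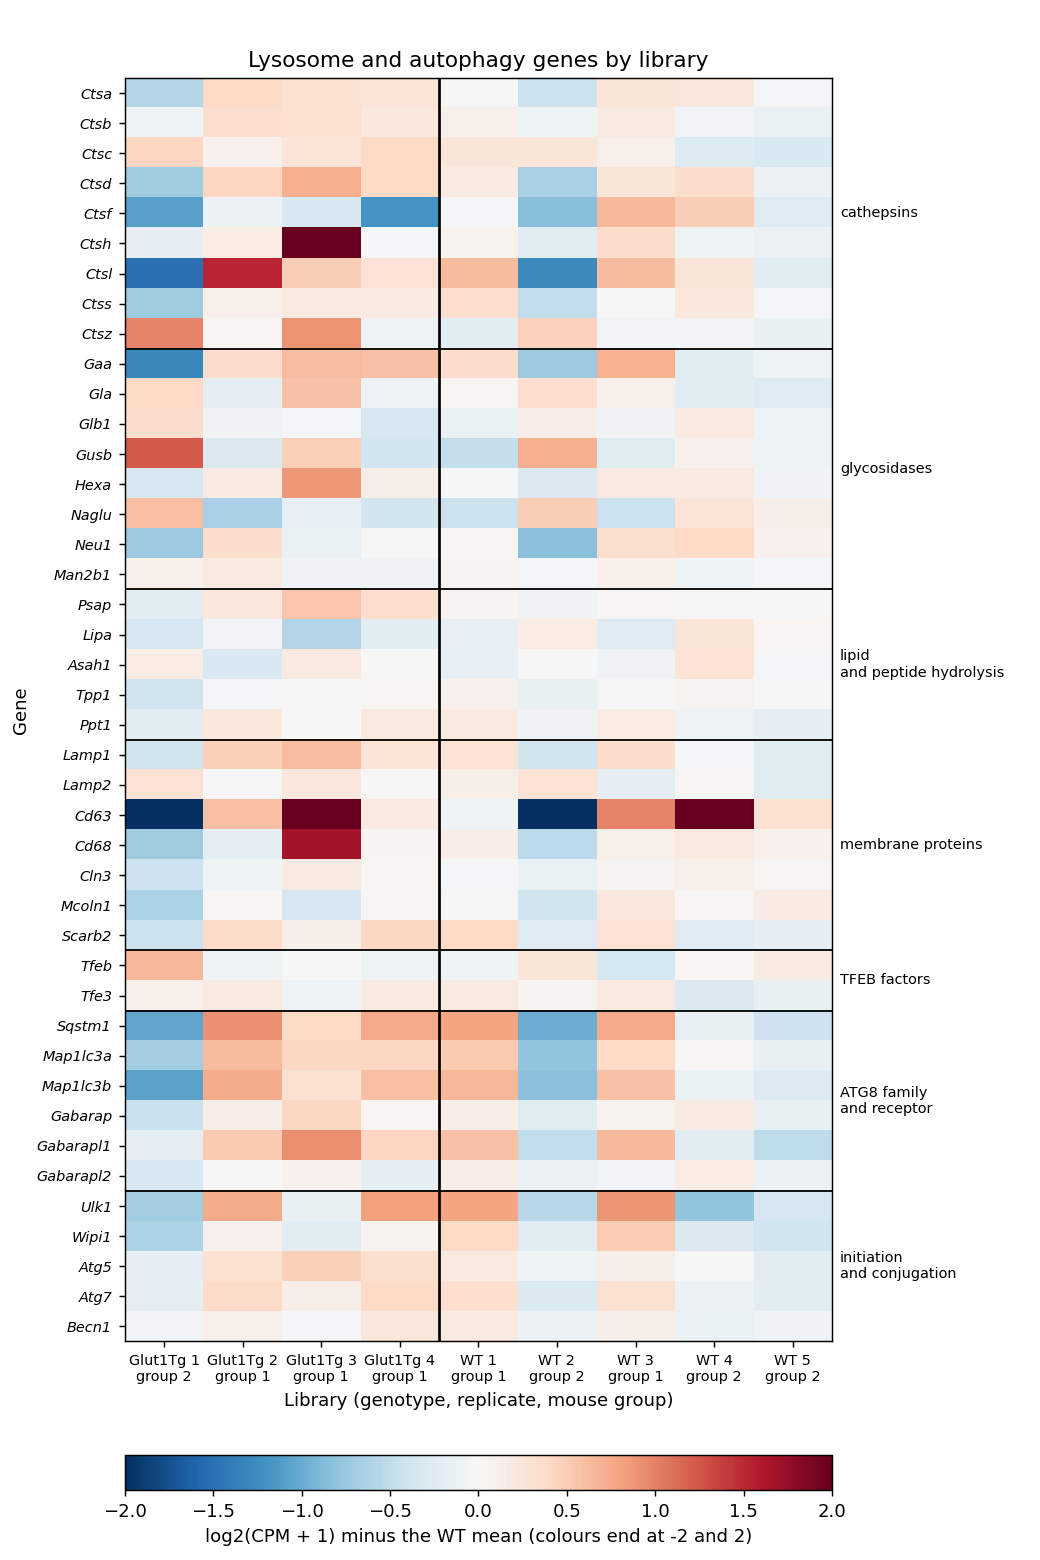
Each gene (rows, by role) in each library (columns, Glut1Tg left of WT, with the mouse group under the name), as log2(CPM + 1) minus the mean of the 5 WT libraries, with colours ending at -2 and 2. Sqstm1, Map1lc3b, Gabarapl1 and Ulk1 are below 0 in the 4 mouse group 2 libraries, in places only palely blue (Sqstm1 at -0.144 in WT replicate 4). Ulk1 is as pale a blue in Glut1Tg replicate 3 of mouse group 1 (-0.147). Cd63, Cd68 and Ctsh are dark red in Glut1Tg replicate 3, and Cd63 also in WT replicate 4.

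The ATG8 family and its receptor held the most lower genes, with 4 of 6 called (66.7%, against 11.0% of all genes). All 6 log2 fold changes were below 0 (median -0.97), against 7525 of the 14817 genes tested. Sqstm1 (chr11:50199366-50210827 in mm10), the gene of the receptor p62, had 168 (Glut1Tg) and 176, 317 and 263 (WT) CPM in mouse group 2, against 660.1, 463 and 591 (Glut1Tg) and 605 and 596 (WT) CPM in mouse group 1. Every mouse group 2 library was below every mouse group 1 library, and the fold of mouse group 2 over mouse group 1 was 0.367 (95% interval 0.26 to 0.519; log2 fold change -1.45, SE 0.22, adjusted p = 0.00387). Map1lc3b (chr8:121590361-121598760), the gene of LC3B, the protein most used to mark autophagosomes, had 134 (Glut1Tg) and 157, 257 and 233 (WT) CPM in mouse group 2, against 474, 348 and 432 (Glut1Tg) and 449.8 and 425 (WT) CPM in mouse group 1. The order of libraries was much like that of Sqstm1, with Glut1Tg replicate 1 and WT replicate 2 lowest and WT replicates 4 and 5 between them and mouse group 1 (fold 0.421, 95% interval 0.303 to 0.585; log2 fold change -1.25, SE 0.21, adjusted p = 0.00531). Gabarapl1 (chr6:129533160-129542346), of the GABARAP branch of the family, had 42 (Glut1Tg) and 33.6, 40.4 and 33.2 (WT) CPM in mouse group 2, against 68.7, 92 and 64.4 (Glut1Tg) and 71.9 and 75.7 (WT) CPM in mouse group 1. Here the 4 mouse group 2 libraries lay close together, within 33.2 to 42 CPM, and all below mouse group 1 (fold 0.512, 95% interval 0.405 to 0.649; log2 fold change -0.96, SE 0.15, adjusted p = 0.0041). Map1lc3a, the gene of LC3A, had 7.37 (Glut1Tg) and 6.86, 12.9 and 11.2 (WT) CPM in mouse group 2, against 20.1, 17.1 and 17 (Glut1Tg) and 18.5 and 16.8 (WT) CPM in mouse group 1. It was lower in mouse group 2 as well (log2 fold change -0.97, SE 0.23, adjusted p = 0.0183). Gabarap, the most abundant per kb, did not pass and overlapped between mouse groups, at 179 (Glut1Tg) and 206, 278 and 220.4 (WT) CPM in mouse group 2, against 267, 324 and 251 (Glut1Tg) and 269 and 257 (WT) CPM in mouse group 1 (log2 fold change -0.35, SE 0.17, adjusted p = 0.153). Gabarapl2 ranged from 88.7 to 122 CPM over the 9 libraries. For genotype the adjusted p of these 6 genes was 0.682 to 0.872, with log2 fold changes of -0.26 (SE 0.22) for Sqstm1, -0.30 (SE 0.21) for Map1lc3b and -0.088 (SE 0.16) for Gabarap. In GENCODE M21, exons of genes on the opposite strand cover 17.3% of the Sqstm1 exon bases and 28.3% of those of Gabarapl1. For other genes described here the shares are 43.9% for Becn1, 26.8% for Ctsl and 9.31% for Lamp1, and a gene on the same strand shares 34.4% of the Ctsd exon bases. The sources used here do not say whether counting used strand, so reads of such pairs may not be told apart.

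**Figure D4:**
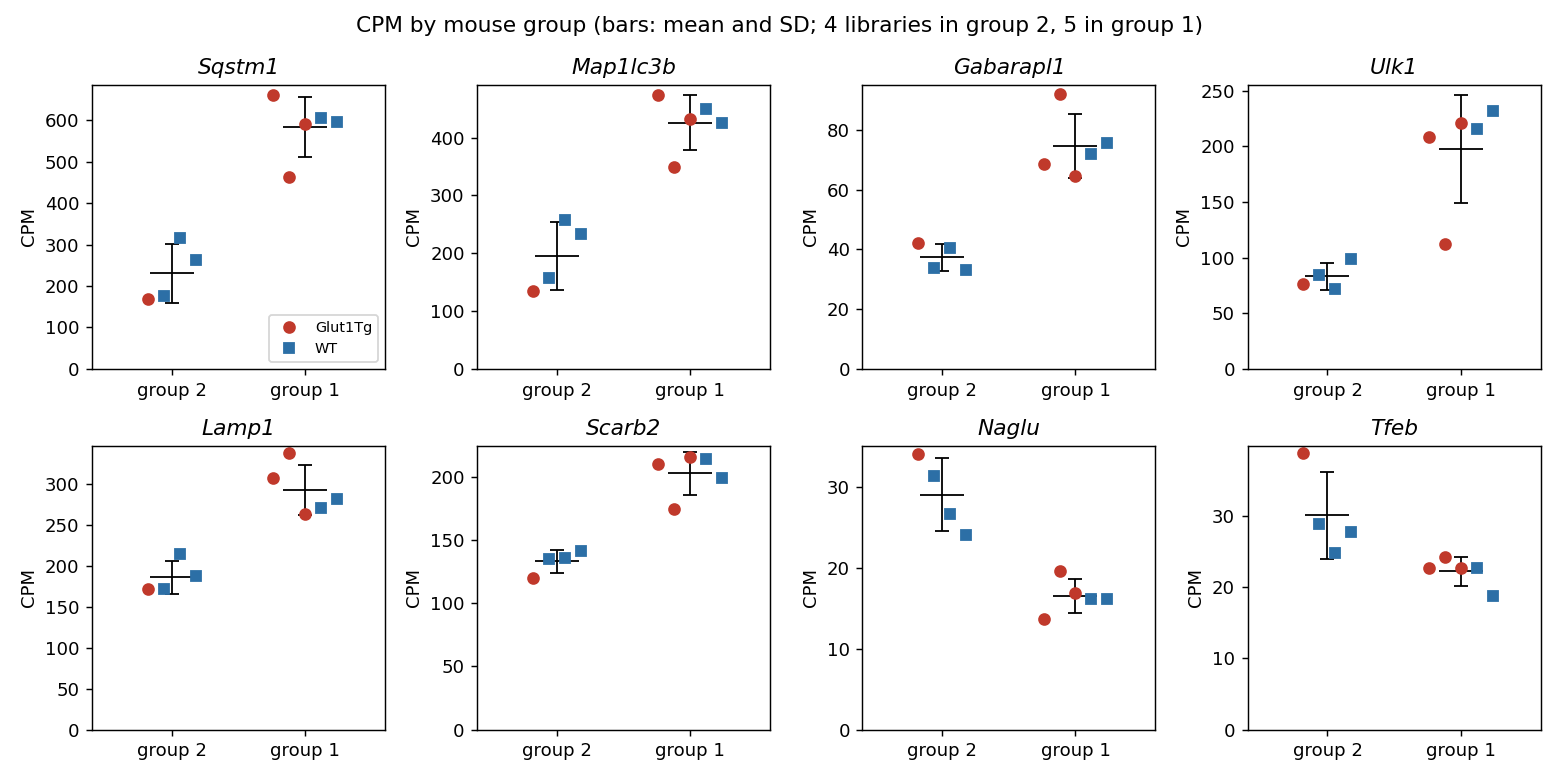
CPM of 8 genes in each library (red circles, Glut1Tg; blue squares, WT), with mouse group 2 left of mouse group 1 and bars for the mean and SD of 4 and 5 libraries. In Sqstm1, Map1lc3b, Gabarapl1, Ulk1, Lamp1 and Scarb2 the mouse group 2 libraries all lie below those of mouse group 1 (Sqstm1 at 168 to 317 against 463 to 660.1 CPM), and in Naglu and Tfeb they all lie above.

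Of the 5 genes of initiation and conjugation, 3 were lower in mouse group 2 (60%, against 11.0% of all genes). All 5 had log2 fold changes below 0, against 7525 of the 14817 genes tested. Ulk1 (chr5:110784488-110810097), the gene of the kinase that starts autophagy, had 76.3 (Glut1Tg) and 84.5, 72.1 and 99.2 (WT) CPM in mouse group 2, against 209, 113 and 221 (Glut1Tg) and 216 and 232 (WT) CPM in mouse group 1. Glut1Tg replicate 3 was the lowest of mouse group 1 and lay nearest to mouse group 2, without reaching it (fold 0.397, 95% interval 0.283 to 0.556; log2 fold change -1.33, SE 0.22, adjusted p = 0.00461). Atg7, the E1-like enzyme gene of ATG8 conjugation, had 38.2 (Glut1Tg) and 35.1, 39.9 and 37 (WT) CPM in mouse group 2, against 56.5, 46.8 and 57.2 (Glut1Tg) and 54.6 and 53.4 (WT) CPM in mouse group 1, a smaller difference (log2 fold change -0.51, SE 0.12, adjusted p = 0.0156). Wipi1, with 7.62 ± 1.01 CPM in mouse group 2 and 11.8 ± 2.54 CPM in mouse group 1 (SD, n = 4 and n = 5), was also lower (log2 fold change -0.78, SE 0.16, adjusted p = 0.0116). Becn1, the gene of Beclin 1, did not pass although its mouse groups did not overlap, at 149.8 (Glut1Tg) and 144, 142 and 148 (WT) CPM in mouse group 2, against 167, 152 and 182 (Glut1Tg) and 177 and 169 (WT) CPM in mouse group 1 (log2 fold change -0.22, SE 0.11, adjusted p = 0.158). Atg5, whose product forms the conjugate that attaches ATG8 proteins, ranged from 36 to 59.1 CPM and did not pass (adjusted p = 0.0573). By genotype, the log2 fold change was -0.25 (SE 0.21) for Ulk1, -0.014 (SE 0.11) for Becn1 and 0.0051 (SE 0.12) for Atg7, none of which passed.

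Among the 7 membrane proteins, 2 were lower in mouse group 2 (28.6%, against 11.0% of all genes). Lamp1 (chr8:13159161-13175338), whose promoter is shown above, had 172 (Glut1Tg) and 172, 214 and 188 (WT) CPM in mouse group 2, against 308, 338 and 263 (Glut1Tg) and 271 and 281 (WT) CPM in mouse group 1. The mouse groups did not overlap (fold 0.642, 95% interval 0.517 to 0.796; log2 fold change -0.64, SE 0.14, adjusted p = 0.0124). Scarb2 (chr5:92441314-92506833) encodes LIMP-2, the receptor that brings glucocerebrosidase to lysosomes, and had 120.2 (Glut1Tg) and 135, 136 and 141 (WT) CPM in mouse group 2, against 209.9, 175 and 215 (Glut1Tg) and 214 and 199 (WT) CPM in mouse group 1. The 4 libraries of mouse group 2 lay within 120.2 to 141 CPM (fold 0.64, 95% interval 0.534 to 0.767; log2 fold change -0.64, SE 0.12, adjusted p = 0.00662). Lamp2, the partner of Lamp1, ranged from 49.7 to 72 CPM with a log2 fold change of 0.13 (SE 0.15), and Cln3, the gene of a membrane protein mutated in juvenile neuronal ceroid lipofuscinosis, from 48.7 to 74.1 CPM. Mcoln1, the gene of the lysosomal calcium channel TRPML1, had 37.2 (Glut1Tg) and 44.3, 58.8 and 65.4 (WT) CPM in mouse group 2, against 59.1, 45.7 and 59.6 (Glut1Tg) and 57.8 and 67.7 (WT) CPM in mouse group 1. Glut1Tg replicates 1 and 3 and WT replicate 2 were its lowest libraries, and neither comparison passed (log2 fold change -0.35, SE 0.18, adjusted p = 0.681 for genotype, and log2 fold change -0.31, SE 0.18, adjusted p = 0.223 for mouse group). Between genotypes, Lamp1 averaged 270.3 ± 72.6 CPM in Glut1Tg and 225 ± 49.1 CPM in WT (log2 fold change 0.024, SE 0.14, adjusted p = 0.963), and Scarb2 180.1 ± 43.8 CPM and 165 ± 38.3 CPM (log2 fold change -0.10, SE 0.12, adjusted p = 0.782; SD, n = 4 and n = 5).

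Cd63, Cd68 and Ctsh were highest in Glut1Tg replicate 3, the library with the highest sums of mast cell and of macrophage markers. Cd63 encodes a tetraspanin of late endosomes that is also known from the granules of mast cells, basophils and platelets, and had 1.74, 43.7, 456 and 31.8 CPM in Glut1Tg (replicates 1 to 4), against 26.6, 1.83, 57.2, 131 and 35.2 CPM in WT (replicates 1 to 5). Glut1Tg replicate 3 was highest and Glut1Tg replicate 1 and WT replicate 2 were lowest, and neither the genotype test (log2 fold change 0.71, SE 2.21, adjusted p = 0.928) nor the mouse group test (log2 fold change -0.95, SE 2.00, adjusted p = 0.752) passed. The 13 mast cell and basophil markers (11 of 13 tested), among them Cpa3, Mcpt1, Mcpt2 and Fcer1a, summed to 122, 968, 5275 and 606 CPM in Glut1Tg (replicates 1 to 4), compared with 572, 138, 1145, 2364 and 727 CPM in WT (replicates 1 to 5). The order of the 9 libraries by this sum and by Cd63 was the same at all 9 places. Sums of other cell types gave nearly the same order, so it does not single out mast cells. In the macrophage and monocyte sum only Glut1Tg replicate 2 (87.4 CPM) and WT replicate 3 (82.6 CPM) changed places. In the platelet sum only WT replicate 5 (179 CPM) and Glut1Tg replicate 2 (146 CPM) did. Of the 13 markers 0 were at 0 in all libraries of a genotype, and Fcer1a, the IgE receptor chain, stood at 0.454 CPM in Glut1Tg replicate 1 and 0.406 CPM in WT replicate 2 against 261 CPM in Glut1Tg replicate 3. Platelet markers, 8 of 8 tested, summed to 1375 CPM in Glut1Tg replicate 3, against 25.1 CPM in the lowest Glut1Tg library and 58.7 to 459 CPM in WT. Cd68, the macrophage-associated lysosomal glycoprotein gene, had 2.27, 3.73, 15.9 and 4.55 CPM in Glut1Tg (replicates 1 to 4), against 4.85, 2.72, 4.75, 5.14 and 4.65 CPM in WT (replicates 1 to 5), and Ctsh had 0.227, 0.547, 12.3 and 0.368 CPM in Glut1Tg (replicates 1 to 4), against 0.462, 0.203, 0.771, 0.314 and 0.293 CPM in WT (replicates 1 to 5). Both were highest in Glut1Tg replicate 3, where the 15 macrophage and monocyte markers (9 of 15 tested) summed to 614 CPM, against 13.8 to 87.4 CPM in the other Glut1Tg libraries and 15.5 to 166 CPM in WT. For Ctsh this held in Glut1Tg replicate 3 alone: WT replicate 4 had the second-highest macrophage and monocyte sum, at 166 CPM, with Ctsh at 0.314 CPM. Lyz2, the lysozyme gene of myeloid cells, stood at 207 CPM in Glut1Tg replicate 3 and at 0.416 to 2.67 CPM in the other libraries. Neutrophil and dendritic cell markers were also highest in that library, at 229.6 and 244 CPM. Mast cell and basophil sums were 122 to 2364 CPM in mouse group 2 and 572 to 5275 CPM in mouse group 1, so they overlapped. The part of other cells in these values was not tested, and in bulk RNA fewer cells of a type and less RNA per cell cannot be told apart.

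**Figure D5:**
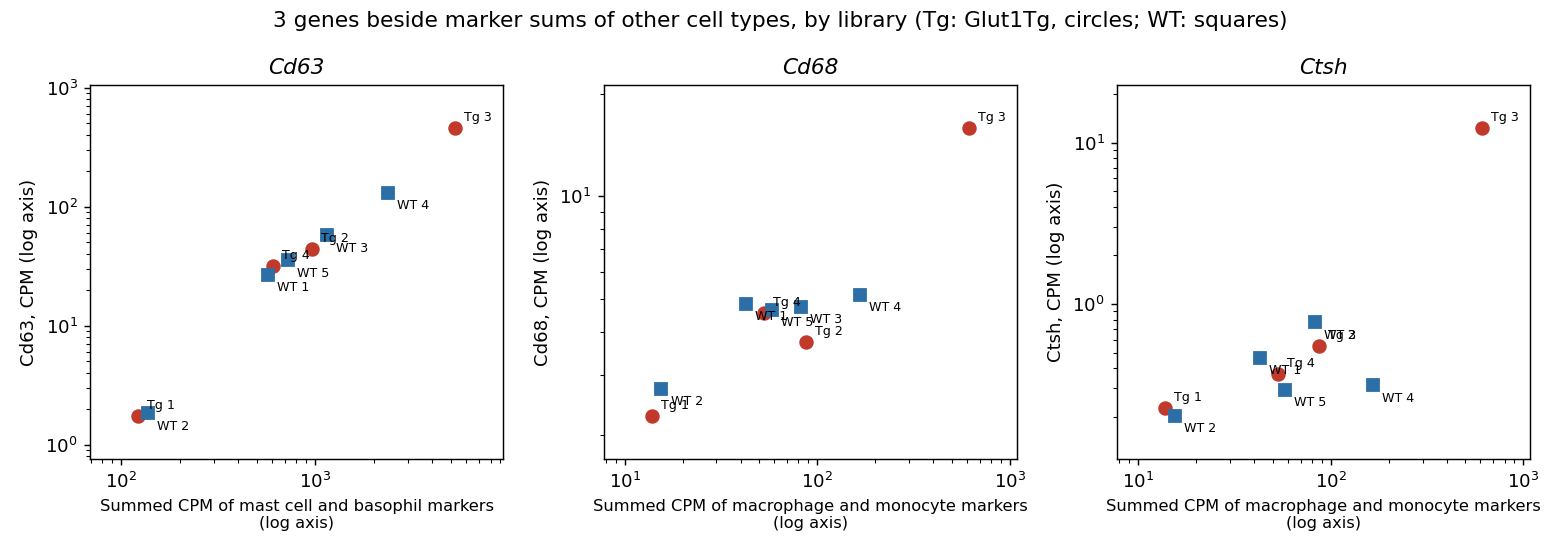
Cd63, Cd68 and Ctsh (vertical, CPM) against the summed CPM of mast cell and basophil markers or macrophage and monocyte markers (horizontal), both on log axes, in each of 9 libraries (red circles, Glut1Tg, labelled Tg; blue squares, WT). Glut1Tg replicate 3 is highest on both axes in all 3 panels, with Cd63 at 456, Cd68 at 15.9 and Ctsh at 12.3 CPM.

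Cathepsins had 8 of 9 log2 fold changes below 0 for mouse group 2 over mouse group 1 (median -0.48). Over all genes tested 7525 of 14817 were below 0 (median -0.014). Of the 9 cathepsins 0 passed, with edgeR adjusted p-values from 0.0515 for Ctsl to 0.713. Ctsd had 193 (Glut1Tg) and 201, 404 and 292 (WT) CPM in mouse group 2, against 428, 516 and 415 (Glut1Tg) and 356 and 375 (WT) CPM in mouse group 1. Glut1Tg replicate 1 and WT replicate 2 were the lowest, and WT replicate 4 lay inside the range of mouse group 1 (log2 fold change -0.63, SE 0.27, adjusted p = 0.111). Ctss, with 200.4 (Glut1Tg) and 233, 382 and 318 (WT) CPM in mouse group 2, against 355, 376 and 367 (Glut1Tg) and 415 and 327 (WT) CPM in mouse group 1, showed the same 2 libraries lowest (log2 fold change -0.48, SE 0.20, adjusted p = 0.106). Ctsb, a cysteine protease gene, had 233 (Glut1Tg) and 233, 239 and 225 (WT) CPM in mouse group 2, against 313, 305 and 287 (Glut1Tg) and 265 and 279 (WT) CPM in mouse group 1, a narrow range in which the mouse groups did not overlap but did not pass (log2 fold change -0.28, SE 0.11, adjusted p = 0.0783). By genotype the log2 fold change was -0.033 (SE 0.27) for Ctsd, -0.25 (SE 0.20) for Ctss and 0.093 (SE 0.11) for Ctsb. Ctsl, a cysteine protease gene, spanned 7.41 CPM in Glut1Tg replicate 1 to 67.1 CPM in Glut1Tg replicate 2. The protective protein gene Ctsa ranged from 136 to 266 CPM, and Ctsc, which activates granule serine proteases, from 98.7 to 165 CPM.

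Glycosidases went both ways between mouse groups, with 1 of 8 lower (12.5%) and 2 higher (25%). Over all genes tested these shares were 11.0% and 13.1%. Gaa (chr11:119267887-119285454), the gene of acid alpha-glucosidase, which digests glycogen in lysosomes, had 10.2 (Glut1Tg) and 15.5, 22.6 and 24.7 (WT) CPM in mouse group 2, against 34, 41.1 and 40.1 (Glut1Tg) and 33.9 and 43.5 (WT) CPM in mouse group 1. The groups did not overlap, and Glut1Tg replicate 1 was the lowest (fold 0.419, 95% interval 0.282 to 0.622; log2 fold change -1.26, SE 0.25, adjusted p = 0.00983). Naglu (chr11:101070012-101077672) acts in heparan sulfate breakdown and had 34.2 (Glut1Tg) and 31.4, 26.7 and 24.1 (WT) CPM in mouse group 2, against 13.7, 19.7 and 17 (Glut1Tg) and 16.2 and 16.2 (WT) CPM in mouse group 1. All 4 mouse group 2 libraries lay above mouse group 1 (fold 1.82, 95% interval 1.42 to 2.33; log2 fold change 0.86, SE 0.16, adjusted p = 0.00701). Gusb was higher in mouse group 2, at 64.3 ± 27.9 CPM against 38.6 ± 11.9 CPM in mouse group 1 (SD, n = 4 and n = 5), with overlapping libraries (log2 fold change 0.89, SE 0.26, adjusted p = 0.0342). Man2b1, a lysosomal alpha-mannosidase gene, was the steadiest, at 250.5 (Glut1Tg) and 226, 219 and 228 (WT) CPM in mouse group 2, against 263, 222 and 222 (Glut1Tg) and 242 and 249 (WT) CPM in mouse group 1 (log2 fold change 0.026, SE 0.11, adjusted p = 0.95 for genotype). Neu1, the gene of lysosomal sialidase, had 35.4 (Glut1Tg) and 32.6, 78.1 and 62.8 (WT) CPM in mouse group 2, against 75.7, 53.8 and 59.3 (Glut1Tg) and 60.1 and 74.4 (WT) CPM in mouse group 1, low in Glut1Tg replicate 1 and WT replicate 2 (log2 fold change -0.44, SE 0.28, adjusted p = 0.271). Hexa, the alpha subunit gene of beta-hexosaminidase, had 40.5 (Glut1Tg) and 41.7, 57.8 and 48.2 (WT) CPM in mouse group 2, against 57.1, 93.6 and 55 (Glut1Tg) and 51.1 and 57.5 (WT) CPM in mouse group 1, with Glut1Tg replicate 3 highest (log2 fold change -0.37, SE 0.23, adjusted p = 0.256). The galactosidase genes Gla and Glb1 ranged from 8.6 to 16.3 CPM and from 42.9 to 69.9 CPM. Genotype adjusted p-values of the 8 glycosidases ran from 0.681 to 0.95, with log2 fold change 0.11, SE 0.23, adjusted p = 0.888 for Hexa and log2 fold change -0.32, SE 0.28, adjusted p = 0.716 for Neu1.

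Genes of lipid and peptide hydrolysis did not pass in either comparison. Psap had 489 (Glut1Tg) and 548, 572 and 572 (WT) CPM in mouse group 2, against 663, 841 and 725 (Glut1Tg) and 595 and 587 (WT) CPM in mouse group 1. The mouse groups did not overlap, with Glut1Tg replicate 3 highest and Glut1Tg replicate 1 lowest, but neither comparison passed (log2 fold change 0.13, SE 0.15, adjusted p = 0.786 for genotype, and log2 fold change -0.27, SE 0.15, adjusted p = 0.22 for mouse group). Tpp1, a tripeptidyl peptidase gene, had 81.7 (Glut1Tg) and 97.5, 113 and 109 (WT) CPM in mouse group 2, against 106, 109 and 111 (Glut1Tg) and 115 and 109 (WT) CPM in mouse group 1, with Glut1Tg replicate 1 lowest (log2 fold change -0.17, SE 0.12, adjusted p = 0.682 for genotype, log2 fold change -0.20, SE 0.12, adjusted p = 0.237 for mouse group). Ppt1, which removes palmitate from proteins, had 78.1 (Glut1Tg) and 86.6, 84.3 and 80.1 (WT) CPM in mouse group 2, against 105, 89.9 and 104 (Glut1Tg) and 104 and 100.02 (WT) CPM in mouse group 1. Its mouse groups did not overlap, without passing (log2 fold change -0.059, SE 0.11, adjusted p = 0.867 for genotype, and log2 fold change -0.31, SE 0.11, adjusted p = 0.065 for mouse group). The acid lipase gene Lipa ranged from 34.9 to 62.5 CPM and the acid ceramidase gene Asah1 from 24.2 to 36.7 CPM.

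The transcription factor genes differed from each other. Tfeb (chr17:47737030-47792419) had 38.8 (Glut1Tg) and 28.8, 24.8 and 27.7 (WT) CPM in mouse group 2, against 22.7, 24.3 and 22.6 (Glut1Tg) and 22.7 and 18.7 (WT) CPM in mouse group 1. All 4 libraries of mouse group 2 lay above those of mouse group 1, with Glut1Tg replicate 1 highest, and Tfeb was higher in mouse group 2 (fold 1.44, 95% interval 1.17 to 1.78; log2 fold change 0.53, SE 0.13, adjusted p = 0.0227). Without Glut1Tg replicate 1 the adjusted p was 0.236, with a log2 fold change of 0.38. Tfe3 had 67.3 (Glut1Tg) and 65.1, 50.9 and 56.6 (WT) CPM in mouse group 2, against 71.4, 58.1 and 71.1 (Glut1Tg) and 71.5 and 71.9 (WT) CPM in mouse group 1. The groups overlapped (log2 fold change -0.19, SE 0.14, adjusted p = 0.332). By genotype, Tfeb averaged 27.1 ± 7.84 CPM in Glut1Tg and 24.5 ± 4.04 CPM in WT (log2 fold change 0.30, SE 0.13, adjusted p = 0.681), and Tfe3 67 ± 6.2 CPM and 63.2 ± 9.25 CPM (log2 fold change 0.028, SE 0.14, adjusted p = 0.956; SD, n = 4 and n = 5). Tfeb messenger levels do not show the activity of the protein, which is set largely by phosphorylation and by entry into the nucleus.

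Other genes of the pathway, from lists that do not hold the 42, were counted beside the same background of 11.0% lower and 13.1% higher. Of 26 further genes of the autophagy machinery, 8 were lower in mouse group 2 (30.8%) and 1 higher, with a median log2 fold change of -0.28. They included Rb1cc1, which encodes the FIP200 scaffold of the ULK1 complex (mean 58.6 CPM in mouse group 2 against 167 CPM in mouse group 1, adjusted p = 0.00195), and Atg16l1, the partner of ATG5 (mean 56.7 CPM in mouse group 2 against 105 CPM in mouse group 1, adjusted p = 0.00387). Of 11 autophagy receptors 3 were lower (27.3%), among them Tax1bp1 (mean 311 CPM in mouse group 2 against 593 CPM in mouse group 1, adjusted p = 0.00197) and Tollip (mean 64.9 CPM in mouse group 2 against 124 CPM in mouse group 1, adjusted p = 0.00152), and 1 was higher. The proton pump of the lysosome, the V-ATPase, had 5 of 17 subunit and accessory genes lower (29.4%) and 0 higher, led by Atp6v1e1 (mean 63.4 CPM in mouse group 2 against 143 CPM in mouse group 1, adjusted p = 0.0012) and Atp6ap2 (mean 51.2 CPM in mouse group 2 against 82.3 CPM in mouse group 1, adjusted p = 0.0102). Genes that control mTORC1 and TFEB at the lysosome had 4 of 20 lower and 1 higher. Flcn, the gene of folliculin, which acts on the Rag GTPases in TFEB control, was lower (mean 60.5 CPM in mouse group 2 against 155 CPM in mouse group 1, adjusted p = 0.00465), and Ywhah, a 14-3-3 gene, was the higher one (mean 271 CPM in mouse group 2 against 110.1 CPM in mouse group 1, adjusted p = 0.0141). Sorting and trafficking genes had 5 of 23 lower (21.7%), led by Vps18 and Vps16 of the HOPS and CORVET tethering complexes, and 3 higher (13%). Further hydrolases had 5 of 31 lower (16.1%), Galc being the one of smallest p, and 1, Galns, higher. Of 8 protease inhibitors 0 passed. For genotype, 0 genes of these 7 lists passed, by edgeR.

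Whether the genotype difference itself depended on mouse group was tested with an interaction term. It passed for 0 of the 42 genes and for 0 of the 14817 genes tested (edgeR; 0.00%), and DESeq2 called 0 of the 42 as well. At an unadjusted p under 0.05 there was 1 of the 42, Gaa (log2 interaction -1.02, SE 0.39, adjusted p = 0.741), against 5.30% of all genes. Without WT replicate 2 it passed for 67 genes upward and 73 downward of all genes, and again for 0 of the 42. Of the 42 log2 interactions 15 were positive and 27 negative, with a median of -0.28. Over all genes tested 50.4% were positive, with a median of 0.0071. The term rests on a single Glut1Tg library in mouse group 2.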

How the data were processed

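The data were RNA-seq profiles of 9 iTreg libraries, 4 Glut1Tg and 5 WT. Per the labels' protocols, stranded mRNA libraries were sequenced as paired-end reads. Tools named in the submitters' processing notes are TopHat2, featureCounts, bcl2fastq and DESeq2, with mm10; their versions and settings were not found. Raw counts, whole numbers per gene, were deposited without normalization. The authors' deposited log2 table holds 13700 genes, all 42 described here among them, and its WT replicates 1 and 3 sum to 0 in each gene; it served for 1 alternative.

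Counts were tested in R 4.3.3 with edgeR 4.0.16 (filterByExpr by genotype, TMM, quasi-likelihood test with mouse group and genotype as terms, Benjamini-Hochberg adjustment over 14817 genes, threshold 0.05). DESeq2 1.42.0 and limma 3.58.1 served as alternatives. SE was taken as log2 fold change divided by the root of F, and 95% intervals use the t distribution of the fit. CPM use TMM-scaled totals and ignore the model terms. Exon lengths, positions and overlaps come from GENCODE M21 (GRCm38, the same assembly as mm10), and promoters from RefSeq. The code was tested on simulated counts.

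The 42 genes, lists and tests were chosen with earlier results of these data known. Values in every library went to the 3 genes of highest mean CPM in each role, to genes that passed a test, and to the 3 of smallest p in each direction for genotype and for mouse group; Cd68 and Ctsh were added after their values were seen, as were the promoter motifs. Counts of every pair of replicates differed by more than sampling noise. Alternatives are given at the end.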

Additional observations from a re-analysis of the deposited data

Results flagged for a closer look

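A library that lay far from the others of its genotype (Dixon's test of the gap over the range, at the 95% level) was found in 8 of 84 combinations of gene and genotype. Chance gives about 1 in 20 for independent combinations, but these share the same libraries. The test also ignored mouse group, and Glut1Tg replicate 1 was the only Glut1Tg library of mouse group 2. In Glut1Tg replicate 3, Ctsh was 12.3 CPM, against 0.227 to 0.547 CPM in the other Glut1Tg libraries, Cd63 was 456 CPM, against 1.74 to 43.7 CPM, and Cd68 was 15.9 CPM, against 2.27 to 4.55 CPM. Glut1Tg replicate 1 was apart in Ctss at 200.4 CPM, against 355 to 376 CPM in the other Glut1Tg libraries, in Tpp1 at 81.7 CPM, against 106 to 111 CPM, and in Tfeb at 38.8 CPM, against 22.6 to 24.3 CPM. WT replicate 2 was apart in Ctsz at 97.4 CPM, against 60.9 to 68 CPM in the other WT libraries, and in Cd68 at 2.72 CPM, against 4.65 to 5.14 CPM. These are the 3 libraries that stood apart over all genes.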

How the results depend on the processing

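Under every alternative run, 0 of the 42 genes passed for genotype or for the interaction, and the mouse group median stayed below 0 under each. For mouse group there were 10 lower and 3 higher calls (11% and 13.1% of all genes). These became 14 and 3 with DESeq2 (15% and 17.4%), 11 and 3 with limma-voom (11.8% and 11.9%) or on the authors' log2 values (11.8% and 12.6%), and 13 and 1 with no genotype term (11.4% and 12.2%). Leaving out single libraries gave 3 to 15 lower and 0 to 3 higher, where 2.86% to 13.7% and 1.44% to 16.7% of all genes were called. Without both Glut1Tg replicate 1 and WT replicate 2 there were 2 lower and 0 higher (median -0.10), without the 3 libraries apart 11 and 1 (median -0.10), and within WT 3 and 0; these fits have fewer libraries. With the replicate block, 0 lower and 0 higher were called among the 42, and 0 among all genes, in either comparison; 4470 genes had an unadjusted p under 0.05 for mouse group. Deviations of same-numbered libraries from their genotype mean correlated across genes at -0.57, -0.68, 0.19 and -0.24. Of the Glut1Tg libraries, 0 of 4 correlated best with their own number. Replicates 1, 2 and 4 of the 2 genotypes were in different mouse groups, and mouse group was not removed from these deviations. The correlations therefore cannot show whether same-numbered libraries were paired. The genotype median was -0.23 within mouse group 2 and 0.028 within mouse group 1. Fits within a mouse group or within WT, and without the 3 libraries apart, were chosen after seeing the data.

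Only genes chosen by the naming rule were followed for sign, and other genes of the 42, such as Ctsa and Cln3, changed sign as well: for mouse group, the number above 0 was 9 at first and 13 without both Glut1Tg replicate 1 and WT replicate 2. Among the genes followed, these log2 fold changes, none of which passed in any fit, changed sign; the cause was not tested. For genotype they were: with DESeq2 size factors, Atg7 -0.011. With no filter, Atg7 -0.0034. With DESeq2, Atg7 -0.011. With limma on the authors' log2 values, Lamp1 -0.0014, Cd63 -0.55 and Atg7 -0.019. Without both Glut1Tg replicate 1 and WT replicate 2, Ctsd 0.28, Man2b1 -0.088, Tfe3 -0.13, Map1lc3a 0.0073, Gabarap 0.064, Gabarapl1 -0.0089 and Atg7 -0.039. With the replicate block, Ctsd 0.011, Tfe3 -0.0027 and Atg7 -0.020. With no mouse group term, Ctsd 0.25, Gaa 0.16, Naglu -0.12, Ppt1 0.050, Scarb2 0.13, Sqstm1 0.27, Map1lc3a 0.22, Map1lc3b 0.19, Gabarap 0.054, Ulk1 0.14 and Becn1 0.058. Within mouse group 1, Ctsd 0.31, Man2b1 -0.065, Tfe3 -0.10, Map1lc3a 0.031, Gabarap 0.091 and Atg7 -0.017. Within mouse group 2, Ctsb -0.021, Hexa -0.31, Psap -0.23, Lamp1 -0.18, Cd63 -5.04 and Becn1 0.024. For mouse group they were: without both Glut1Tg replicate 1 and WT replicate 2, Neu1 0.082, Cd63 1.00 and Mcoln1 0.00012. Within WT, Cd63 0.43. Without the 3 libraries apart, Neu1 0.082, Cd63 1.00 and Mcoln1 0.00067. Leaving out single libraries, the genotype log2 fold change ran from -0.22 to 0.28 for Ctsd, -0.088 to 0.057 for Man2b1, -0.13 to 0.084 for Tfe3, -0.26 to 0.0074 for Map1lc3a, -0.19 to 0.064 for Gabarap, -0.0088 to 0.17 for Gabarapl1, -0.051 to 0.048 for Atg7, -0.10 to 0.30 for Hexa, -0.063 to 0.10 for Lamp1, -1.57 to 2.03 for Cd63 and -0.083 to 0.017 for Becn1. That of mouse group ran from -3.17 to 0.43 for Cd63. Precision differed between genes: the 95% interval of the genotype fold was 0.0524 to 51.2 for Cd63 and 0.645 to 1.48 for Ctsd.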
